A study of Mus musculus with 12 samples.

Results

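Broad open domains were the merged accessible regions that spanned 5 kb or more and were called in all 12 libraries. They were found by keeping the 35110 strongest distinct intervals of each library, ranked by the deposited −log10 q value on chromosomes 1 to 19, X and Y, and by joining intervals of any library that shared at least 1 bp. This gave 525 domains, out of 21076 regions called in all 12 libraries and 45091 regions called in at least 2. The width that chose the domains is the outline of all 12 libraries laid over each other, so it is described and not tested. What was measured per library is the covered width, the number of bases of the domain that lie under the kept intervals of that library, and the number of summits, the separate maxima that the peak caller placed in those intervals. A domain can enter through the group in which it is wide, and such a domain has to differ between groups. The number of domains that changed is therefore given beside the share of all regions that changed, and nothing is read from the comparison. For such domains the differences, p-values and lack of overlap given below are descriptions and not support for a change. For example, the domains over Ifng, Il15ra, Rps3, Nop56, Ncl, Nfkbia, Serpinb9, Hspa5 and Ikzf1 covered 5 kb or more only in stimulated libraries. Those over Apbb1ip and Ccl4 did so only in WT stimulated libraries, and the one upstream of Hjurp only in KO stimulated libraries. Muc4 and the wider Ccr2 domain did so only in WT control libraries.

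ATAC-seq, in which a transposase cuts accessible DNA and tags the fragments for sequencing, was applied to natural killer (NK) cells from mouse spleen, 100000 cells per library. WT cells came from Reg-1fl/fl mice, which carry a floxed gene for Regnase-1, and KO cells from Reg-1ΔNK mice, which lack Regnase-1 in NK cells. Cells of each genotype were left as controls or stimulated with IL-12/18, and each of the 4 groups had 3 libraries. Age, sex, the Cre driver, cytokine doses and the time of stimulation are not given in the sources used here. Nor do the labels tie the 3 libraries of a group to different mice, and every p-value below therefore rests on a spread among libraries that can be technical. Regions called in all 12 libraries lay within 5 kb of 14 of 14 NK cell marker genes, of 4 of 8 B cell, 6 of 9 T cell, 3 of 8 myeloid and 2 of 6 erythroid marker genes. A broad domain lay within 5 kb of 7 of the NK cell markers and of 1 B cell marker, Cd79a (6492 bp), and no domain overlapped a marker gene of the other cell types. The part of such cells in the results was not tested.

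Natural killer cells belong to the innate lymphocytes. They lyse infected or transformed cells and secrete interferon gamma, and IL-12 with IL-18 is a strong trigger of that secretion. Regnase-1, encoded by Zc3h12a, is an endoribonuclease that cuts messenger RNAs of inflammatory genes and so limits immune cell activation. Long stretches of accessible chromatin are typical of highly transcribed housekeeping genes and of genes that define a cell type, where a promoter, the enhancers around it and the transcribed body lie open side by side. In repeated sequence, reads from many copies are placed on the few copies that a genome assembly holds.

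The domains over Ifng, Nfkbia, Batf3 and Il15ra are shown by the 250 bases before a start of each gene, from the RefSeq promoter table for GRCm38.p6, the assembly behind the mm10 build of the peak lists. They are among the 48 domains that widened with IL-12/18 in both genotypes, a trait that does not single them out, and every window printed holds a match. At Furin, whose domain also widened in both, a TATA box was found before 1 start and no match before another. A further Il15ra start held an ETS match and no AP-1 match. Motifs were searched on both strands and matches could overlap: the STAT motif TTCNNNGAA, the AP-1 motif TGANTCA, the TATA box TATAAA, the CRE motif TGACGTCA, the ETS motif CCGGAAG, the NRF1 motif, the kappa B motif and the CArG box. Capitals mark the matches.
Ifng, chr10:118440796-118441045, plus strand: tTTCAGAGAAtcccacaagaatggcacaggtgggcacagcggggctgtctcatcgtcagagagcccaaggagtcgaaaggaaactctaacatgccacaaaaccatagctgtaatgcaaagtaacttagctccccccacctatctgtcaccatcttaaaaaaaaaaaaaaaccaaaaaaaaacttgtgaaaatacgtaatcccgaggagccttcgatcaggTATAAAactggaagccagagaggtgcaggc
Nfkbia, chr12:55492648-55492897, minus strand: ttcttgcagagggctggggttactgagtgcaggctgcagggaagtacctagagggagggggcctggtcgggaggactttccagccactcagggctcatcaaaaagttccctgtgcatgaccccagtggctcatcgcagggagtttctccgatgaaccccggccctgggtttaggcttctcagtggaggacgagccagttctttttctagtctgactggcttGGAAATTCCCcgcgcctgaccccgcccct
Batf3, chr1:191098164-191098413, plus strand: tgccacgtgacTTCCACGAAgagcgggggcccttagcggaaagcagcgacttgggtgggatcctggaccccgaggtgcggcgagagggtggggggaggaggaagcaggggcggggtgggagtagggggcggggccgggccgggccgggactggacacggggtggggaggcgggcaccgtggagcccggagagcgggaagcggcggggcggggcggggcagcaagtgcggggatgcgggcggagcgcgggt
Il15ra, chr2:11705462-11705711, plus strand: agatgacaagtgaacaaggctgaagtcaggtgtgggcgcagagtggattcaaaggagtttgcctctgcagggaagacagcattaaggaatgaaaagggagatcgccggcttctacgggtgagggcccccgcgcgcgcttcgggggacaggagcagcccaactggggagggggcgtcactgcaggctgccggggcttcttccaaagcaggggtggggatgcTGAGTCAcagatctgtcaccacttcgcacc

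Ifng encodes interferon gamma, and its window held a STAT match from base −249 to −241 and a TATA box from −30 to −25 relative to the start. Nfkbia encodes the NF-kB inhibitor IkB alpha, and its window held a kappa B match from −29 to −20. Batf3 encodes an AP-1 family transcription factor and held a STAT match from −239 to −231. Il15ra encodes the alpha chain of the IL-15 receptor, and the start shown held an AP-1 match from −30 to −24. Over the 300 bases around each start in the table, the kappa B motif was present at 6.81% of the 455 starts inside broad domains and at 4.81% of all 21262 starts. The STAT motif was present at 7.25% and 7.69%, the AP-1 motif at 5.93% and 6.99%, and the TATA box at 10.1% and 12.6%. For the others the shares were 1.76% and 2.23% (CRE), 8.57% and 11.6% (ETS), 1.32% and 1.33% (NRF1) and 1.54% and 1.52% (CArG). At the 9666 starts in narrower regions called in all 12 libraries the shares were 5.07% (kappa B), 6.75% (STAT), 4.39% (AP-1) and 5.62% (TATA). There they were 3.63% for CRE, 21.7% for ETS, 2.545% for NRF1 and 1.17% for CArG. The 250 bases before the start of Zc3h12a held none of the motifs searched. A match describes the letters of the window and shows no binding.

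Domains also covered microRNA genes: 18 of the 525 held 44 mature microRNAs of the RefSeq table. MicroRNAs are short RNAs that guide repression of messenger RNAs through their seed, bases 2 to 8, which is set in capitals. The ones shown come from the domains over Mir155hg, the host gene of miR-155, over the miR-212 and miR-132 pair next to Hic1, over miR-142 next to Tspoap1, over miR-21a at the end of Vmp1, and over the miR-23a, miR-27a and miR-24-2 cluster next to Zswim4.
miR-155-5p: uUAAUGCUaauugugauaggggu
miR-212-3p: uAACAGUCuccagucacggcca
miR-132-3p: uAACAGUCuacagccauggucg
miR-142a-5p: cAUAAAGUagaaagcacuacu
miR-142a-3p: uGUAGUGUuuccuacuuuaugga
miR-21a-5p: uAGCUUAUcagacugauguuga
miR-23a-3p: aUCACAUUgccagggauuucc
miR-27a-3p: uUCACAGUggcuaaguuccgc
miR-24-3p: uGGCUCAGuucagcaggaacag

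The miR-212-3p and miR-132-3p sequences carry the same seed. Of these 5 domains, the one over miR-155 widened with stimulation in both genotypes and is described below. The domain over miR-142 was covered over 10352 to 12615 bp, the one over miR-21a over 7917 to 8841 bp, the one over miR-212 and miR-132 over 5222 to 9166 bp, and the one over miR-23a, miR-27a and miR-24-2 over 11457 to 15669 bp. None of these 4 passed the test in any comparison.

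The merged widths ran from 5001 to 86988 bp, with a median of 5991 bp, and added up to 3833 kb. Most domains lay close to the limit: 264 were 5 to 6 kb wide, 156 were 6 to 8 kb, 59 were 8 to 10 kb, 39 were 10 to 20 kb and 7 were 20 kb or wider. Just inside the limit were domains at Rabgap1l (5001 bp), Zmiz1 (5001 bp) and Mir155hg (5003 bp). Just outside it were regions at Ccnl1 (4995 bp), Mta3 (4991 bp) and Tcf7 (4991 bp). Single libraries covered less than the outline. The median covered width of a domain lay between 4364 and 5333 bp in the 12 libraries, and 71.7% to 87.0% of the summed outline was covered. Of the 525 domains, 113 were covered over 5 kb or more in every library, 36 were held by 1 interval of at least that length in every library, and 80 stayed under 5 kb in every library. The most and the least covered library of a domain differed by a median factor of 1.57, and in 150 domains by a factor of 2 or more.

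**Figure D1:**
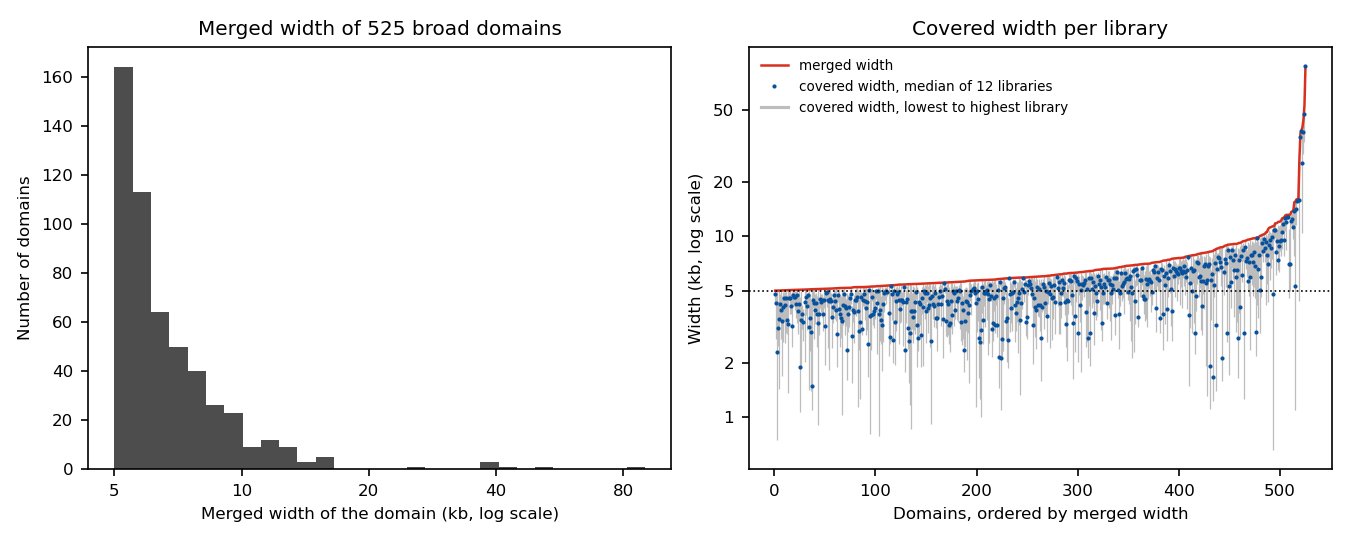
Left, the number of broad domains by merged width (kb, log scale). Right, for each of the 525 domains ordered by merged width, the merged width (red line), the median covered width of the 12 libraries (blue points) and the lowest to highest library (grey lines), in kb on a log scale, with 5 kb dotted. Most domains lie between 5 and 10 kb, and in many the covered width of single libraries falls below 5 kb.

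In total the domains were covered over 3008 ± 136 kb in WT control libraries (SD, n = 3), 3208 ± 118 kb in WT stimulated, 2854 ± 51.4 kb in KO control and 2853 ± 169 kb in KO stimulated libraries. They held 3496 ± 326, 4056 ± 150, 3730 ± 101 and 3513 ± 681 summits in the same order. KO stimulated replicate 1 stood apart. It had the shortest deposited list, 35110 distinct intervals against 42520 to 63128, and 2737 summits in the domains against 3137 to 4227 in the other 11 libraries. Its median number of summits per domain was 4, against 5 to 7. With all lists cut to the same length, the lowest kept −log10 q was 16.6 to 27.05 in WT stimulated libraries. It was 5.76 to 15.9 in WT control, 8.84 to 13.6 in KO control and 1.31 to 13.2 in KO stimulated libraries. Interval widths followed the library: the median covered width of the regions called in all 12 libraries ran from 1128.5 bp in KO stimulated replicate 2 to 1475 bp in WT stimulated replicate 3. For the tests each library was therefore centred on that median, and log2 differences below are relative to it. Between the means of the groups the median itself shifted by 0.04 with stimulation in WT cells and by −0.13 in KO cells, and by −0.08 and −0.24 between KO and WT control and stimulated cells, on the log2 scale.

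The widest domains lay over repeated genes. The widest spanned the 5S ribosomal RNA gene array (chr8:123537307-123624294, 86988 bp), the genes for the small RNA of the large ribosomal subunit, of which RefSeq lists 48 small RNA genes inside the domain. It was covered over 85960 to 86916 bp in the 12 libraries and held 63 to 126 summits. The next 2 lay at the ends of the sex chromosomes, over Mid1-ps1 on chromosome Y (chrY:90760419-90813211, 52793 bp) and over Mid1 on chromosome X (chrX:169978421-170022519, 44099 bp), which encodes a microtubule-associated ubiquitin ligase and crosses the pseudoautosomal boundary in mice. They were covered over 33065 to 51436 bp and 28468 to 43510 bp, with the lowest value of both in KO stimulated replicate 1. A 38339-bp domain on chromosome 9 (chr9:2999990-3038328) had no RefSeq gene within 50 kb, was covered over 38322 to 38338 bp in every library, and had a median deposited fold over background of 1901 against a median of 54.3 over all domains. A 36722-bp domain on chromosome 6 (chr6:47650276-47686997) covered a run of predicted genes, among them Gm40369 and Gm40364, and a 16222-bp domain lay over Sfi1, a centrosome gene. Reads from near-identical copies cannot be told apart in these domains, so their width and height are uncertain.

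Among domains over single-copy genes, the widest was a 40047-bp domain over Man2a2, Fes and Furin (chr7:80366770-80406816), which encode a Golgi mannosidase, a tyrosine kinase and a proprotein convertase. The next were Mroh2a and Hjurp (chr1:88254252-88280933, 26682 bp), Fbxl18 and Actb (chr5:142894329-142910311, 15983 bp) and Zswim4 (chr8:84196842-84212792, 15951 bp). Actb encodes the cytoskeletal beta actin and Hjurp a chaperone that loads centromeric histone. The domain at Actb was covered over 15157 to 15785 bp in all 12 libraries, the Furin domain over 10460 to 39941 bp and the Hjurp domain over 4408 to 25425 bp. The 6 domains with the most summits, by the median over libraries, were the 5S array (107.5), the chromosome 9 domain without a gene (97), Mid1-ps1 (79.5), Mid1 (68), the chromosome 6 domain (50.5) and Furin (35). The median over all domains was 6. The width of a domain and its rank by strength did not coincide: 243 of 525 domains (46.3%) had their median rank among the strongest 10% of the kept intervals of a library, and 21 had it in the weaker 50%.

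Of the 525 domains, 451 (85.9%) overlapped a protein-coding gene of the RefSeq table and 100 overlapped 2 or more. The other 74 comprised 50 over another RefSeq gene, of which 34 over a long non-coding RNA gene, and 24 over none. Altogether 549 of 21883 protein-coding genes (2.51%) lay under a domain, and 74 domains held a protein-coding gene from end to end. A protein-coding start listed in the promoter table fell inside 298 domains (56.8%). The share rose with the width of a region, being 8.99% below 1 kb, 32.5% from 1 to 2 kb, 48.2% from 2 to 3 kb, 50.3% from 3 to 4 kb and 52.5% from 4 to 5 kb, and a wider region reaches a start more easily. In the 197 domains with exactly 1 such start, the outline reached a median of 3980 bp downstream into the gene and 2024 bp upstream, and 143 of the 197 reached farther downstream. In single libraries 61.5% to 63.6% of the covered bases of these domains lay downstream. Starts in domains had a median GC content of 62% and a median CpG ratio of 0.745 observed over expected, against 62% and 0.800 at the 9666 starts in narrower regions called in all 12 libraries and 50.3% and 0.257 at the 11141 starts outside them.

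Genes of the NK cell programme were described from lists chosen by their role. The list of NK transcription factors had 9 of 28 genes under a domain: Tbx21 (T-bet), Id2, Runx3, Runx1, Nfil3, Ikzf1, Foxo1, Klf2 and Bach2. Of 27 NK receptors and adaptors 6 did, namely Ncr1 (NKp46), Klrb1c (NK1.1), Klrb1b, Hcst (DAP10), Tyrobp (DAP12) and Cd7. Of 15 cytotoxic granule genes 5 did: Gzmb (granzyme B), Nkg7, Srgn (serglycin, the granule matrix proteoglycan), Serpinb9 (a granzyme B inhibitor) and Tnfsf10 (the death ligand TRAIL). Of 29 cytokine receptor and JAK-STAT genes 5 did, with Il12rb1 and Il18r1 for the 2 stimulating cytokines, Il2rb, Il15ra and the feedback inhibitor Socs1. Il2rb, the beta chain shared by the IL-2 and IL-15 receptors, lay under 3 domains of 15430, 7714 and 6099 bp. Of 24 NF-kB and AP-1 genes 10 did (Nfkbia, Nfkbid, Fosb, Fosl2, Jun, Junb, Jund, Batf3, Atf3 and Mafk), and of 15 survival and cell cycle genes 7 did (Bcl2l11, Pim1, Myc, Ccnd2, Ccnd3, Cdk6 and Btg1). Of 17 cytokines and chemokines 2 did, Ifng and Ccl4. Of 20 homing and adhesion genes 4 did, among them Ccr2, Itgb7 and Cd69, of 17 MHC class I and interferon-stimulated genes matched 2 did (Tap2 and Psmb8), and of 18 ubiquitous genes 7 did. The Myc domain was covered over 5125 to 5333 bp and the Id2 domain over 6327 to 7349 bp, whereas the Klrb1c domain ran from 1358 to 5034 bp.

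Domains stood near each other: 114 of 525 had another within 50 kb, in 51 groups. The largest group was a run of 4 along Hip1r, Vps37b and Abcb9 (chr5:123999388-124081826). Groups of 3 included Il2rb, Tbx21 with Tbkbp1, Klrb1c with Klrb1b, Ezr with Sytl3, and histone genes on chromosome 13. The constant genes of the T cell receptor alpha and beta chains, Trac and Trbc1, were each under a domain. Neither gene is on the list of T cell markers used above, and the part of T cells in these domains was not tested.

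Zc3h12a, the gene deleted in the KO, lay under a 6986-bp domain (chr4:125121945-125128930). The domain was covered over 5803, 5091 and 6623 bp in WT control libraries 1 to 3, over 5228, 6490 and 6295 bp in WT stimulated, over 5600, 5788 and 6126 bp in KO control and over 4749, 4956 and 5691 bp in KO stimulated libraries. The 4 groups overlapped. The domain passed the test in no comparison (KO minus WT, 0.08 ± 0.09 SE in control and 0.01 ± 0.09 in stimulated cells on the centred log2 scale), and domain width does not check the deletion, whose extent the sources used here do not give. Among 10 RNA decay genes, Zfp36, Zfp36l1 and Zfp36l2, which encode proteins that bind AU-rich messenger RNAs and promote their decay, also lay under domains, and none of the 4 domains passed the test for stimulation (limma, medians of −0.11 in WT and −0.04 in KO cells).

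IL-12/18 widened 67 and narrowed 28 of the 525 domains in WT cells. The domains over Furin, Ifng, Il15ra, Rps3 and Nop56 widened by 1.63 to 1.85 on the log2 scale, and the domains over Muc4, Ccr2, Stk17b and Vps37b narrowed. The test was limma on log2 covered width, fitted over all 21076 regions called in all 12 libraries, with Benjamini-Hochberg adjustment at 0.05. It called 6.98% of all regions in this comparison, 5.19% wider and 1.8% narrower, and the median difference was 0.00 over the domains and −0.02 over all regions. Without centring the domains split into 70 wider and 16 narrower. Leaving out WT control replicate 2 or WT stimulated replicate 2 lowered the count from 95 to 60 in each case.

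The Furin domain was covered over 10460, 11907 and 13698 bp in WT control libraries and over 37714, 39801 and 39679 bp in WT stimulated libraries. KO control libraries covered 11250, 13696 and 13406 bp, and KO stimulated libraries 36938, 38782 and 39941 bp. All 6 stimulated libraries lay far above all 6 controls and filled nearly the whole outline. The domain gained 1.67 ± 0.09 log2 (SE, adjusted p = 2.08e-06, limma) in WT and 1.72 ± 0.09 (adjusted p = 1.72e-06, limma) in KO cells, and its summits rose from 11 to 19 in WT controls to 63 to 73 in WT stimulated libraries.

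The outline of the Ifng domain (chr10:118439835-118449448) holds the whole gene. WT controls covered 2358, 3134 and 3430 bp and WT stimulated libraries 9281, 9302 and 9418 bp. KO controls covered 3536, 3217 and 3264 bp and KO stimulated libraries 9367, 8368 and 9545 bp. The stimulated libraries of both genotypes lay above all controls, by 1.63 ± 0.09 log2 in WT (adjusted p = 2.48e-06, limma) and 1.57 ± 0.09 in KO (adjusted p = 4.76e-06, limma). Only stimulated libraries covered 5 kb or more, so the Ifng domain reached 5 kb through them and these values only describe it. Most of the gain lay downstream of the start, from a mean of 2218 to 8158 bp in WT cells, while the upstream side went from 756 to 1176 bp.

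The largest difference of both genotypes lay in a domain of 15484 bp without any RefSeq gene (chr16:3641706-3657189), 48.4 kb from its nearest protein-coding gene, the olfactory receptor gene Olfr161. WT controls covered 1746, 1484 and 1922 bp and WT stimulated libraries 14356, 14070 and 15484 bp. KO controls covered 1756, 1482 and 1089 bp, and KO stimulated libraries 8693, 8855 and 15226 bp. WT stimulated replicate 3 covered the whole outline, so the domain reached 5 kb through a stimulated library and the values below only describe it. The difference was 3.06 ± 0.19 log2 in WT and 3.02 ± 0.19 in KO cells (adjusted p = 3.98e-06 and 6.10e-06, limma), and controls had 1 or 2 summits where stimulated libraries had 9 to 23. A second domain without a gene, 13.9 kb from Vps54 (chr11:21219438-21225142), widened by 1.80 ± 0.19 in WT and 2.03 ± 0.19 in KO cells.

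Further domains among the 8 with the largest gain in WT cells lay over Rps3 (1.85 ± 0.19), which encodes a protein of the small ribosomal subunit, Nop56 with Idh3b (1.74 ± 0.22), where Nop56 encodes a core protein of nucleolar RNA methylation complexes, Il15ra (1.80 ± 0.29), and the pseudogenes Mlnr-ps (1.88 ± 0.25) and Best4-ps (1.84 ± 0.28). The Il15ra domain (chr2:11702286-11707375) was covered over 1113, 1314 and 1168 bp in WT controls and 4653, 3307 and 5090 bp in WT stimulated libraries. KO controls had 1245, 1313 and 1090 bp, and KO stimulated libraries 4111, 1665 and 4821 bp. The groups did not overlap in either genotype, although KO stimulated replicate 2 stayed close to the controls. WT stimulated replicate 3 covered the whole outline, so the Il15ra domain reached 5 kb through a stimulated library and these values only describe it. The Best4-ps domain reached 2763, 5312 and 8303 bp in WT stimulated libraries and 1782 to 2497 bp in KO stimulated libraries, and passed in WT but not in KO cells (0.61 ± 0.28, adjusted p = 0.229, limma). The difference between the genotypes did not pass (−1.23 ± 0.40, adjusted p = 0.650, limma). The Rps3 and Nop56 domains covered 5 kb or more only in stimulated libraries, and the Best4-ps domain reached 5 kb through WT stimulated libraries. The values of these 3 domains, too, only describe them.

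**Figure D2:**
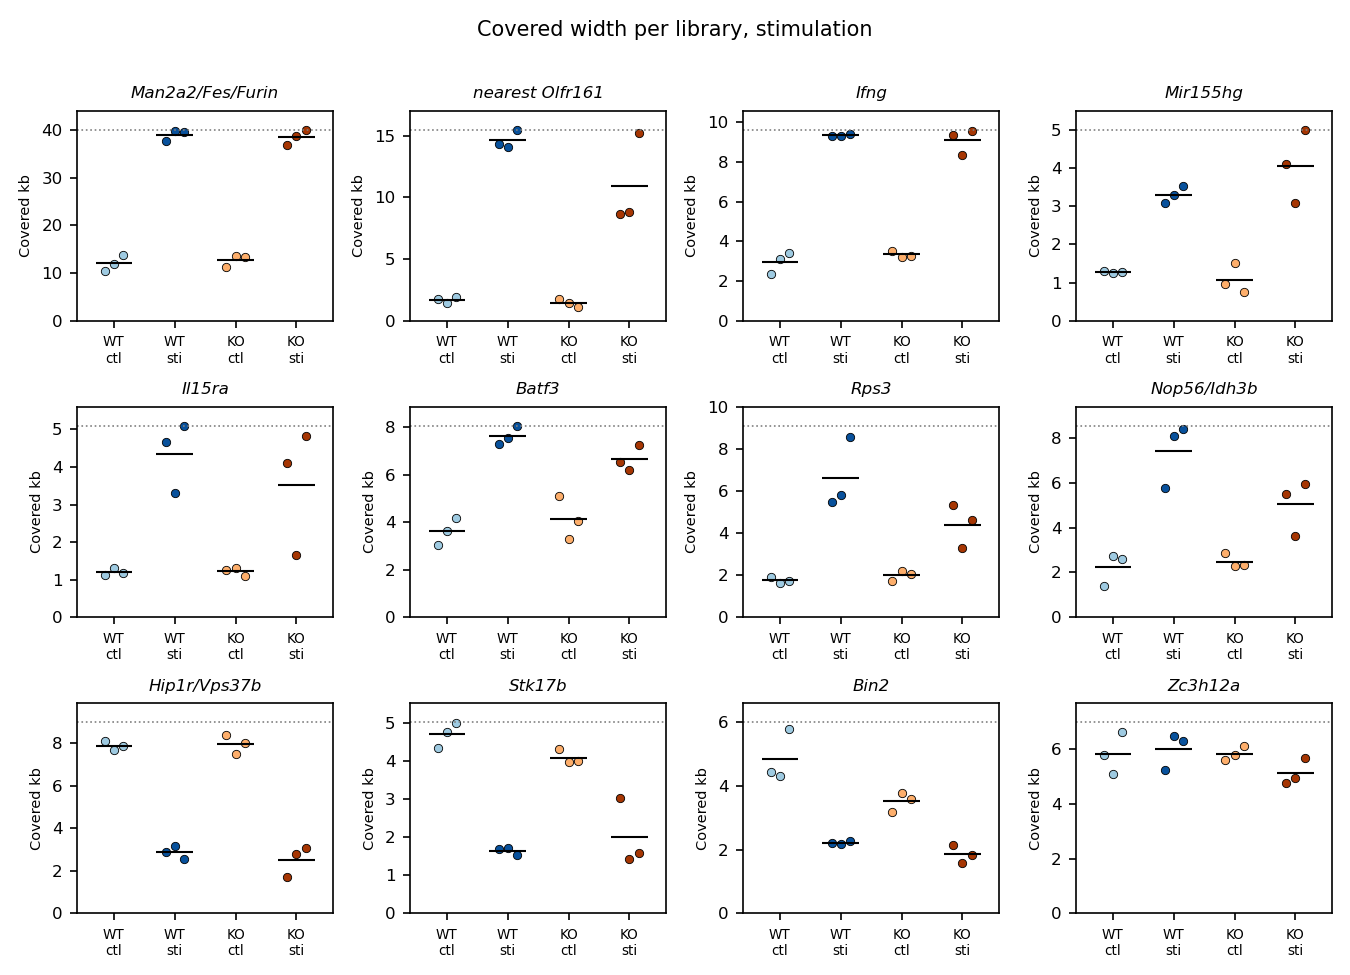
Covered width (kb) of 12 domains in each library, by group (WT and KO, control and IL-12/18). Points are libraries, short lines are means of 3, and the dotted line is the merged width. In the first 8 panels stimulated libraries lie above the controls of the same genotype, in Hip1r/Vps37b, Stk17b and Bin2 below them, and at Zc3h12a the groups overlap.

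Domains that narrowed in WT cells included the wider of 2 domains at Ccr2 (chr9:124104908-124113122), which encodes a chemokine receptor for monocyte chemoattractant proteins. It went from 4455, 6193 and 7674 bp in controls to 1500, 2218 and 1701 bp (−1.78 ± 0.24, adjusted p = 0.00122, limma). Stk17b, which encodes a kinase of lymphocyte apoptosis, went from 4333 to 4985 bp in WT controls to 1531 to 1702 bp (−1.55 ± 0.23), and the domain over Hip1r and Vps37b from 7690 to 8114 bp to 2556 to 3171 bp (−1.50 ± 0.17). Bin2, which encodes a membrane-bending protein of blood cells, changed by −1.15 ± 0.12, Slc26a10 by −1.19 ± 0.27, the Hjurp domain by −1.52 ± 0.26, the domain upstream of Hjurp by −1.01 ± 0.19 and Muc4 by −1.67 ± 0.09. The call at Slc26a10 was lost in 4 of the 12 fits that left out 1 library (WT control replicate 2 or 3, or WT stimulated replicate 1 or 3), with adjusted p up to 0.0900. Calls at Stk17b, Bin2, the Hjurp domain and its neighbour were lost when all deposited intervals were used in place of the 35110 strongest. The cut was stricter in WT stimulated than in WT control libraries (lowest kept −log10 q 16.6 to 27.05 against 5.76 to 15.9). Its part in the narrowing was not tested.

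In KO cells stimulation widened 63 domains and narrowed 9, and 6.6% of all regions were called, 4.28% wider and 2.32% narrower. Without centring the split was 34 wider and 26 narrower, and without KO stimulated replicate 1 it was 40 wider and 14 narrower. The median difference was 0.06 over the domains and 0.01 over all regions. Of the domains called, 48 widened in both genotypes, which is 71.6% of those that widened in WT and 76.2% of those that widened in KO cells, and 5 narrowed in both. One moved in opposite directions, the domain upstream of Hjurp. The 8 with the largest gain in KO cells lay near Olfr161, at Ncl, Mir155hg, near Vps54, at Ccl4, at the non-coding gene Gm19585, at Riok3 (1.75 ± 0.14) and at Furin.

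Mir155hg (chr16:84709871-84714873) is the host gene of miR-155, a microRNA induced in activated lymphocytes whose sequence is given above. Its domain was covered over 1306, 1248 and 1268 bp in WT controls and 3092, 3292 and 3534 bp in WT stimulated libraries. In KO cells it went from 964, 1504 and 751 bp to 4118, 3085 and 5003 bp. No stimulated library overlapped the controls, and the gain was 1.34 ± 0.21 in WT and 2.08 ± 0.21 in KO cells (adjusted p = 0.00293 and 0.000232, limma). KO stimulated replicate 3 covered the whole outline, so the domain reached 5 kb through a stimulated library and these values only describe it. The gains of the 2 genotypes differed by 0.75 ± 0.30, which did not pass (adjusted p = 0.728, limma).

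Ncl encodes nucleolin, a protein of ribosome assembly. Its domain (chr1:86338889-86350236) was covered over 659, 1237 and 2506 bp in KO controls and 7618, 4047 and 6605 bp in KO stimulated libraries (2.34 ± 0.46, adjusted p = 0.0105, limma). In WT cells the values were 1506, 4826 and 4725 bp and then 10169, 9038 and 11272 bp, which did not overlap but did not pass (1.60 ± 0.46, adjusted p = 0.0577, limma). The call in KO cells was lost when all deposited intervals were used.

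Of the narrowed domains in KO cells, Vps37b with Hip1r had the largest difference (−1.57 ± 0.17), going from 7472 to 8399 bp to 1700 to 3095 bp. Col8a2, which encodes a collagen chain, went from 4794, 5966 and 6124 bp to 2161, 1765 and 2012 bp (−1.38 ± 0.14). Stk17b (−0.97 ± 0.23), Bin2 (−0.81 ± 0.12), Sema4b (−0.67 ± 0.15), Selplg (−0.65 ± 0.12), Ankrd11 (−0.46 ± 0.11) and Arhgap45 (−0.44 ± 0.11) followed. Selplg encodes the selectin ligand PSGL-1 and Sema4b a membrane semaphorin. The calls at Stk17b, Sema4b, Ankrd11 and Arhgap45 were lost in 5, 4, 3 and 7 of the 12 fits that left out 1 library.

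**Figure D3:**
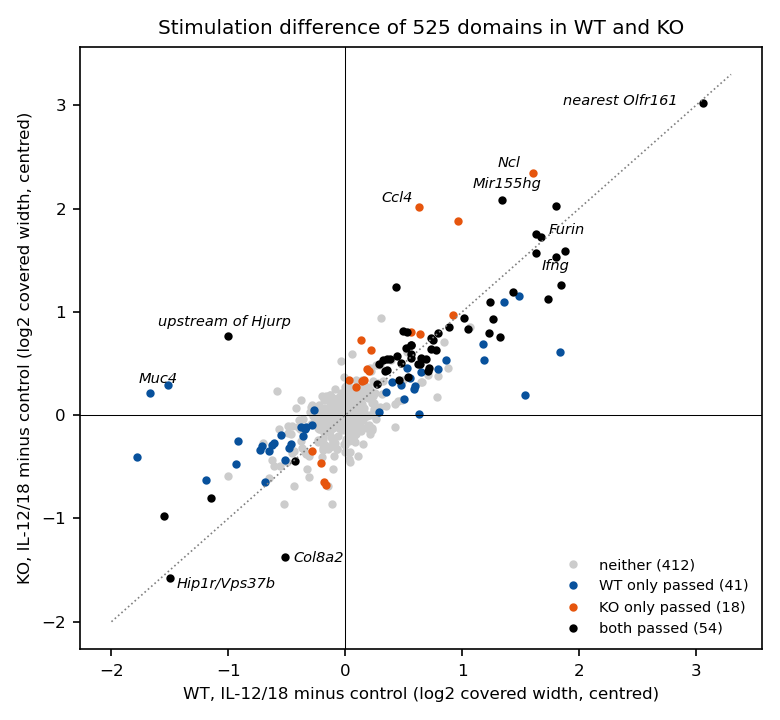
For each of the 525 domains, the difference in centred log2 covered width between IL-12/18 and control libraries in WT (horizontal) and KO cells (vertical). Black points passed the test in both genotypes (54), blue in WT (41) and orange in KO cells (18), and the dotted line marks equal differences. The black points have the same sign on both axes, except the domain upstream of Hjurp.

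The number of summits followed the width in part. Over the 5966 regions with a mean of at least 2 summits, which include 524 of the domains, limma on log2 summit number called 21 domains in WT cells (17 with more and 4 with fewer summits), where 1.48% of all regions tested passed, 1.27% with more and 0.201% with fewer, and 7 in KO cells (6 with more and 1 with fewer), where 0.62% passed, 0.335% with more and 0.285% with fewer. The largest gains in WT cells were near Olfr161 (4.05 ± 0.41 log2), at Mlnr-ps (3.15 ± 0.28), Nop56 (2.86 ± 0.40), Rps3 (2.40 ± 0.41) and Ifng (2.34 ± 0.28). Summits fell at Ccr2 (−2.82 ± 0.28), Stk17b (−2.32 ± 0.38), the Hjurp domain (−2.26 ± 0.41) and Vps37b (−1.92 ± 0.30). At Ifng, WT controls had 2, 4 and 3 summits and WT stimulated libraries 14, 16 and 14, while KO controls had 4, 4 and 3 and KO stimulated libraries 7, 12 and 11. With library values centred on their mean, 18 domains passed in KO cells, and 13 did with regions of a mean of at least 1.5 summits included.

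By role, the counts below stand beside 12.8% of all domains that widened in WT and 12% in KO cells (5.19% and 4.28% of all regions). The cytotoxic granule list had 3 domains of 5 that widened in each genotype: Serpinb9 (0.64 ± 0.11 in WT, 0.50 ± 0.11 in KO), Srgn (0.27 and 0.30) and Tnfsf10 (1.44 ± 0.21 and 1.19 ± 0.21). The Tnfsf10 domain went from 1172, 1963 and 1716 bp to 4051, 4616 and 4537 bp in WT cells. The domain over Gzmb was covered over 5191 to 6572 bp and did not pass (0.13 in WT, adjusted p = 0.425, limma), nor did Nkg7. The median over this list was 0.27 in WT and 0.30 in KO cells. The calls at Srgn in WT and KO cells and at Serpinb9 in KO cells were lost in 4, 3 and 5 of the 12 fits that left out 1 library.

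Of the 10 NF-kB and AP-1 domains 2 widened in each genotype, Batf3 and Nfkbia. Batf3 (chr1:191093087-191101135) went from 3046, 3611 and 4189 bp to 7286, 7549 and 8049 bp in WT cells (1.05 ± 0.13) and from 5096, 3270 and 4051 bp to 6556, 6218 and 7237 bp in KO cells (0.84 ± 0.13). Stimulated and control libraries did not overlap in either genotype, and the gain lay on both sides of the start. Nfkbia went from 4028, 4184 and 3972 bp to 5355, 5020 and 5622 bp in WT cells (0.36 ± 0.08) and from 3582, 3968 and 4082 bp to 4407, 4679 and 5343 bp in KO cells (0.44 ± 0.08), and the call in WT cells was lost in 4 of the 12 fits that left out 1 library. The domains over Junb, Jun, Jund, Fosl2, Fosb, Atf3, Mafk and Nfkbid did not pass. At Junb all 12 libraries lay between 12563 and 13013 bp.

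Of the 9 NK transcription factor domains 1 widened in each genotype, Ikzf1, and the medians were 0.03 in WT and −0.10 in KO cells. Of the 7 cytokine receptor and JAK-STAT domains 1 widened in WT (Il15ra) and 2 in KO cells (Il15ra and the widest Il2rb domain, 0.63 ± 0.13). The call at Il2rb was lost without KO stimulated replicate 1 and without KO control replicate 2, with adjusted p up to 0.0519. The Il12rb1 domain was covered over 7258 to 9193 bp and the Il18r1 domain over 3402 to 5550 bp, and neither passed. Btg1 (0.34 ± 0.09) and Cdk6 (0.53) passed in WT cells among the 7 survival and cell cycle domains, and neither call held in all fits that left out 1 library. Of the NK receptor domains none passed in either genotype, and the medians were −0.40 and −0.11. Eef1a1, a translation elongation factor, was the 1 ubiquitous gene whose domain passed, in WT (0.32 ± 0.08, a call lost in 5 of the 12 fits) and KO cells (0.54 ± 0.08).

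Gene families under the domains were examined after their values had been seen. Ribosomal protein genes, 10 of 84 by their symbols, lay under 10 domains, of which 4 widened in WT and 5 in KO cells, with medians of 0.79 and 0.40. Of all 525 domains 12.8% widened in WT and 12% in KO cells, and of all regions 5.19% and 4.28%. Because the families were picked for their values, nothing is read from these shares. Replication-dependent histone genes, 23 of 67, lay under 8 domains, of which 2 narrowed in WT cells, where 5.33% of all domains and 1.8% of all regions did, and none passed in KO cells, with medians of −0.20 and −0.04. Without centring 3 of the 8 histone domains narrowed in KO cells (median −0.17), and 3 of the 10 ribosomal protein domains widened there (median 0.27). The chaperone genes Hsp90ab1, Hspa8 and Hspa5 lay under 3 domains that widened in WT cells (0.47 ± 0.08, 0.79 ± 0.16 and 1.36 ± 0.37). In KO cells their differences were 0.29 ± 0.08, 0.45 ± 0.16 and 1.10 ± 0.37 and did not pass. At Hspa5, WT stimulated libraries covered 3869, 9335 and 9225 bp against 2331 to 3011 bp in controls, and KO stimulated libraries 7455, 4292 and 2863 bp against 2166 to 2588 bp.

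In the domains with exactly 1 protein-coding start, the median gain on stimulation was larger downstream. The outlines of these domains lean the same way, as 143 of 197 reach farther downstream, so the side is not particular to the gain. Of the 27 that widened in WT cells the median gain was 420 bp upstream and 1637 bp downstream, with the larger gain downstream in 17, and of the 21 that widened in KO cells it was 228 and 1233 bp, with the larger gain downstream in 15. Rps3 went from a mean of 1288 to 5976 bp downstream in WT cells and from 476 to 654 bp upstream. In Batf3 the upstream side went from 2940 to 5124 bp and the downstream side from 675 to 2504 bp. Of the 10 that narrowed in WT cells the median change was −490 bp upstream and −701 bp downstream, with the larger change downstream in 5. These sides follow from the same widths that were tested and carry no test of their own.

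**Figure D4:**
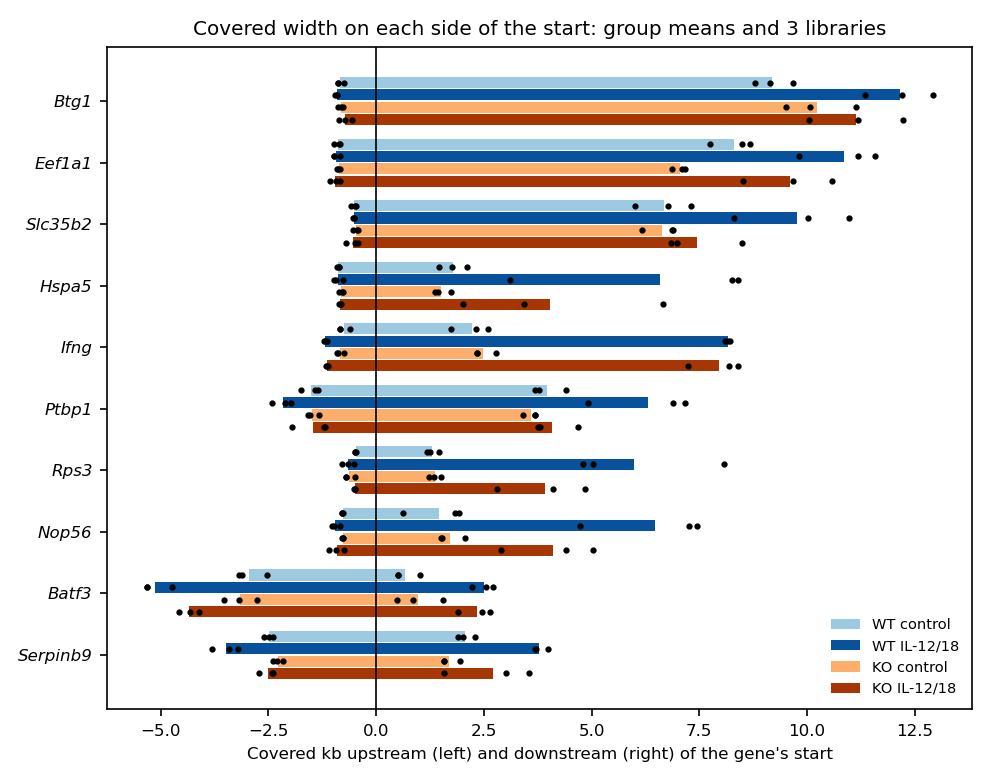
Covered width in kb upstream (left of 0) and downstream (right of 0) of the start of 10 genes whose domain holds exactly 1 protein-coding start and widened in WT cells. Bars are means of 3 libraries per group and dots are libraries. At Ifng, Rps3 and Nop56 the stimulated bars extend mainly downstream, and at Batf3 and Serpinb9 to both sides.

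Between genotypes few domains passed the test. In control cells 3 of 525 were narrower in KO than in WT cells, and 0.19% of all regions were called, 0.0617% as narrower. The comparison of KO with WT control cells shares its control libraries with the stimulation comparisons, so the values are given side by side. The Ccl4 domain (chr11:83661740-83667036), over the gene of the chemokine MIP-1 beta, was covered over 3009, 2654 and 4074 bp in WT controls and 1119, 782 and 1432 bp in KO controls (−1.49 ± 0.19, adjusted p = 0.0112, limma). Among stimulated libraries the WT ones covered 5151, 4954 and 5121 bp, the KO ones 4159, 3399 and 4504 bp. The KO controls lay below all other libraries. Only WT stimulated libraries covered 5 kb or more, so the values of the Ccl4 domain only describe it. The stimulation difference was 2.02 ± 0.19 in KO cells (adjusted p = 0.000137, limma) and 0.63 ± 0.19 in WT cells (adjusted p = 0.0677, limma), and the difference between them did not pass (1.38 ± 0.27, adjusted p = 0.221, limma).

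The wider Ccr2 domain, whose call was lost without centring, with all deposited intervals and with the longest interval, was covered over 2126, 1154 and 2403 bp in KO controls against 4455, 6193 and 7674 bp in WT controls (−1.65 ± 0.24, adjusted p = 0.0218, limma), and over 1170, 1102 and 1504 bp in KO stimulated libraries. The WT controls lay above the other 9 libraries. Only WT control libraries covered 5 kb or more, so the values of this Ccr2 domain only describe it. The Ikzf1 domain (chr11:11687625-11693096), over the gene of the transcription factor Ikaros, was covered over 2737, 3951 and 4199 bp in the WT controls and over 1914, 1962 and 2316 bp in the KO controls (−0.72 ± 0.11, adjusted p = 0.0278, limma). That call was lost in 7 of the 12 fits that left out 1 library (adjusted p up to 0.137), and also without centring, with all deposited intervals, with the strongest 50% of the intervals, with the longest interval and on unlogged widths. Stimulation widened the Ikzf1 domain to 4739, 4971 and 5148 bp in WT cells (0.44 ± 0.11) and to 4138, 3928 and 5427 bp in KO cells (1.24 ± 0.11). The WT call was lost in 5 of the 12 fits, without centring, with all deposited intervals and with the number of intervals as a covariate. The KO call was kept in all 12. Both were lost with the strongest 50% of the intervals and with the longest interval. Leaving out WT control replicate 2 or 3 left 1 of the 3 calls, at Ccl4, and leaving out WT control replicate 1 gave 5.

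In stimulated cells 5 domains were wider and 2 narrower in KO than in WT cells, and 0.361% of all regions were called, 0.0759% as wider and 0.285% as narrower. Without centring the counts were 4 wider and 34 narrower, and without KO stimulated replicate 1 they were 3 and 4. The lowest kept −log10 q was 16.6 to 27.05 in WT stimulated and 1.31 to 13.2 in KO stimulated libraries. The part of this unequal cut in the differences was not tested. At Muc4 (chr16:32750206-32755880), which encodes a membrane mucin, WT controls covered 4107, 4881 and 5655 bp and WT stimulated libraries 1549, 1571 and 1565 bp. KO controls covered 3714, 3825 and 4694 bp and KO stimulated libraries 4190, 4243 and 4465 bp. The 3 WT stimulated libraries lay below all others, and KO exceeded WT by 1.70 ± 0.09 (adjusted p = 9.73e-06, limma). Muc4 was the 1 domain, and the 1 of 21076 regions (0.00474%), whose response to stimulation differed between the genotypes (1.88 ± 0.13, adjusted p = 0.000162, limma). With all deposited intervals that difference was 1.31 and did not pass (adjusted p = 0.373, limma), nor did it with 50% of the intervals (0.76) or with the longest interval (1.16). The call between stimulated KO and WT cells was lost under the latter 2. Only WT control replicate 3 covered 5 kb or more, so the Muc4 domain reached 5 kb through a WT control library and these values only describe it.

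The neighbouring domains at Hjurp had a like order. The Mroh2a and Hjurp domain was covered over 15890, 18750 and 17188 bp in WT controls, 4408, 9329 and 5720 bp in WT stimulated, 15654, 15979 and 19778 bp in KO controls and 18694, 25425 and 14799 bp in KO stimulated libraries. The domain 5.32 kb upstream of Hjurp (chr1:88282962-88290742) was covered over 3159, 3215 and 4971 bp, 1485, 1843 and 2458 bp, 3175, 4148 and 4788 bp and 6635, 6146 and 5831 bp in the same order. In both, the WT stimulated libraries lay below the other 9. The domain upstream of Hjurp covered 5 kb or more only in KO stimulated libraries, so its values only describe it. KO exceeded WT stimulated cells by 1.87 ± 0.26 (adjusted p = 0.0134, limma) and 1.95 ± 0.19 (adjusted p = 0.00250, limma). Stimulation in KO cells gave 0.30 ± 0.26, which did not pass, and 0.77 ± 0.19 (adjusted p = 0.0309, limma), and the genotype difference in the response did not pass in either (1.81 ± 0.37 and 1.77 ± 0.26, adjusted p = 0.221 and 0.130, limma). The call at the Hjurp domain was lost without WT stimulated replicate 3 (adjusted p = 0.0576, limma), with all deposited intervals, with the strongest 50% of the intervals, with the longest interval and with the number of intervals as a covariate.

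Apbb1ip, which encodes a Rap1 adaptor of integrin activation, reached 5496, 5071 and 5077 bp in WT stimulated libraries and 2316, 2173 and 2136 bp in the KO ones (−1.0 ± 0.12, adjusted p = 0.00634, limma), with 2951 to 3537 bp in WT and 2272 to 2475 bp in KO controls. It widened with stimulation in WT cells (0.63 ± 0.12, adjusted p = 0.00745, limma) and not in KO cells (0.01 ± 0.12), and the difference between these did not pass (−0.63 ± 0.17, adjusted p = 0.479, limma). Only WT stimulated libraries covered 5 kb or more, so the Apbb1ip domain reached 5 kb through them and these values only describe it. Col8a2 was covered over 4052, 5324 and 3957 bp in WT stimulated libraries and over 2161, 1765 and 2012 bp in the KO ones (−0.92 ± 0.14), a call lost without WT stimulated replicate 1 or 2 (adjusted p up to 0.0586), with the longest interval and on unlogged widths. Elmo1 (0.41 ± 0.08) and the domain over Gys1, Ftl1 and Bax (0.38 ± 0.07) passed with adjusted p of 0.0445 and 0.0386 (limma) and were lost in 11 and 9 of the 12 fits that left out 1 library. Leaving out WT stimulated replicate 3 lowered the count from 7 to 4.

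**Figure D5:**
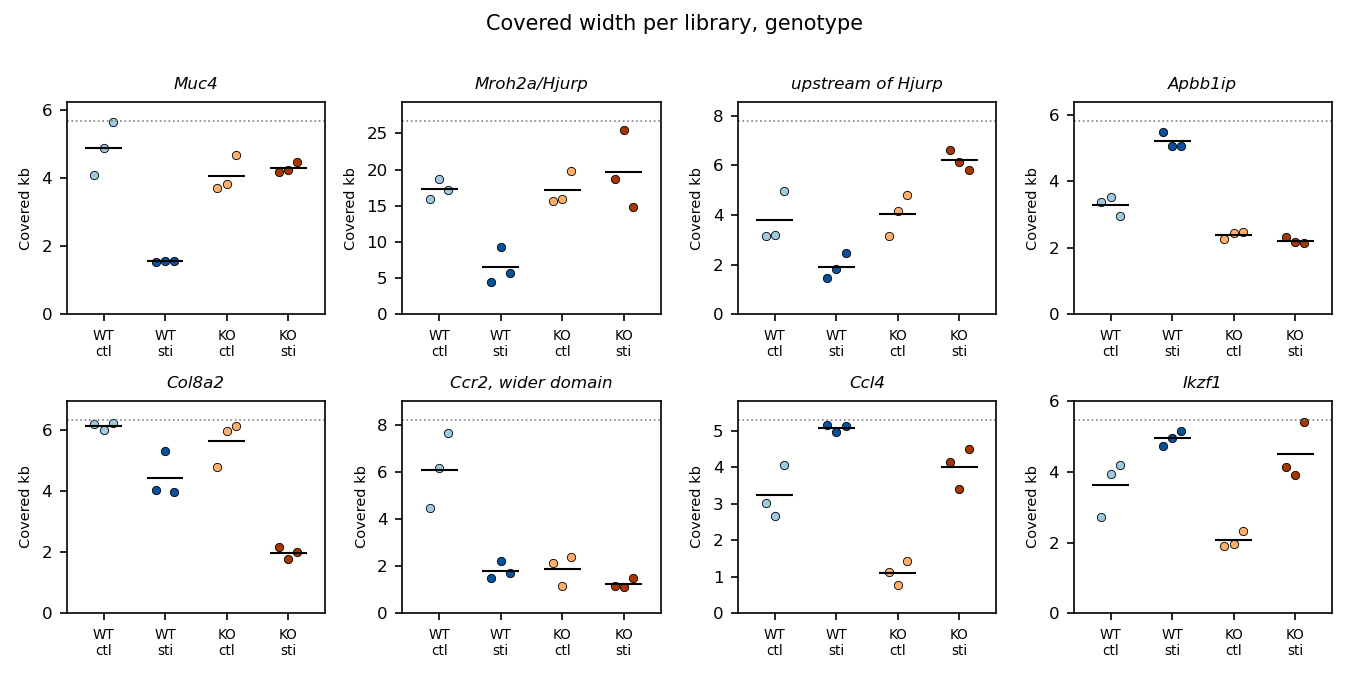
Covered width (kb) of 8 domains in each library, by group. Points are libraries, short lines are means of 3, and the dotted line is the merged width. At Muc4 and at both Hjurp domains the WT stimulated libraries lie lowest, at Ccl4 and Ikzf1 the KO controls lie lowest, and at Apbb1ip the WT stimulated libraries lie highest.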

How the data were processed

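Open chromatin was measured by ATAC-seq in mouse splenic NK cells, 4 groups of 3 libraries, grouped by the sample titles. The authors deposited 1 peak list per library. Per the submitters' processing notes, build mm10, MACS2 2.1.1.20160309, deepTools 3.4.2, Bowtie2 2.3.4.1, SAMtools 1.15.1, cutadapt 4.1 and FastQC 0.11.9 were used, with settings, and any shift of reads for the enzyme, not given in the sources used here. Each deposited row is a summit with a fold over background (a ratio), −log10 p and −log10 q values and a score, which is 10 times the −log10 q. Rows sharing start and end were taken as 1 interval with several summits. These values are the authors' and served only to rank intervals within a list. The peak lists carry no read depth, so it stays unknown.

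Lists were cut to 35110 intervals, the length of the shortest, and merged at 1 bp overlap. Covered widths were tested with limma 3.58.1 (R 4.3.3, trend) on the log2 scale, 1 mean per group over 12 libraries, each centred on its median over the 21076 regions, with Benjamini-Hochberg adjustment at 0.05. A region covers at least 1 kept base in each library, so no pseudocount was used. On simulated data the width test found most of the largest changes put in and missed most of the smaller ones, and the summit test missed most of all sizes, so a domain that did not pass may still differ. The width simulation changed fewer regions than the test called with stimulation, so its recovery need not hold for these data. Alternatives are given in the closing section. Same-numbered libraries deviated together only weakly. The correlations were mostly positive but small over all regions (−0.0002 to 0.105) and of both signs over the domains (−0.18 to 0.20). No pairing was used in the main fit. Named domains are the 10 widest, the 6 with most summits, up to 5 per direction and comparison (8 for stimulation) with the largest called difference, those over listed genes, the 3 on each side of 5 kb, and Zc3h12a. Domains were named from RefSeq tables of GRCm38.p6 by overlapped protein-coding genes, otherwise by other overlapped genes. Domains over no gene were named by the nearest protein-coding gene within 50 kb. The gene families and the microRNA, T cell receptor and neighbouring domains were chosen after their values had been seen. Members and lists were chosen with earlier results of these data known.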

Additional observations from a re-analysis of the deposited data

Results flagged for a closer look

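The response to IL-12/18 at the Muc4 domain differed between the genotypes: the difference of the stimulation effect in KO minus that in WT cells was 1.88 (log2 covered width, adjusted p = 0.000162, limma). WT cells narrowed from 4107 to 5655 bp to 1549 to 1571 bp in 3 of 3 libraries, and KO cells covered 3714 to 4694 bp in control and 4190 to 4465 bp in stimulated libraries. The difference stayed past the threshold in each of the 12 fits that left out 1 library, and missed it with all deposited intervals (1.31), with 50% of the intervals (0.76) and with the longest interval (1.16). The Muc4 domain reached 5 kb through a WT control library, the group in which it was widest. These values therefore only describe it and are not support for a difference.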

How the results depend on the processing

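The 525 domains became 1108 at 4 kb and 163 at 7 kb, and 483 to 520 when 1 library was left out. The 95 domains called for stimulation in WT cells became 55 with the strongest 50% of the intervals, and 60 to 101 with 1 library left out. The 72 called in KO cells became 29 with 50% of the intervals and 41 with the longest single interval, and 48 to 77 with 1 library left out. For KO against WT, the 3 called in control cells became 1 without centring, with all deposited intervals or with 50% of the intervals, and 1 to 5 with 1 library left out. The 7 called in stimulated cells became 38 without centring, 12 with the longest interval and 4 with the number of deposited intervals as a covariate, and 4 to 9 with 1 library left out. The 1 domain called for the genotype difference of the response became 0 with all deposited intervals (limma), 4 with 50% of them and 3 with the longest interval, and stayed at 1 with any library left out. At an unadjusted p under 0.05 the number was 43, and 48 with all deposited intervals. Summit calls in WT cells ran from 15 to 25 with 1 library left out. The 7 summit calls in KO cells became 13 with a mean of at least 1.5 summits and 18 after centring, and 5 to 9 with 1 library left out. The cause of these changes was not tested, beyond the smaller number of regions or samples that some settings leave. Of 65 calls at named domains, 43 held in every fit that left out 1 library. Of 1213 values of named domains under the alternatives, 1003 kept direction and threshold, 208 lost the threshold and 2 turned, the narrower Ccr2 domain in WT (0.29) and Sema4b in KO cells (0.79), both with 50% of the intervals. With the replicate number as a block the counts were 95, 77, 3, 7 and 1 for width and 20 and 8 for summits. The deviations of same-numbered libraries were only weakly correlated (−0.0002 to 0.105 over all regions). Read depth is unknown, so an uncovered stretch may hold a weaker peak, and covered width cannot exceed the merged outline.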
